A study of Mus musculus with 10 samples.

Results

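The smooth muscle contractile genes described here are 10 genes chosen by name: Acta2, Actg2, Myh11, Mylk, Tagln, Cnn1, Smtn, Lmod1, Des and Synpo2. Their rows were found in the deposited table of 47333 mouse genes by Ensembl identifier and GENCODE M21 symbol, and all 10 had a row. RNA came from the right middle lung lobe of 10 untreated (naïve) mice on the C57BL/6J background, aged 12 weeks, whose cages mixed the genotypes. KO mice (n = 5, 1 male and 4 females) had lost Bpifb1, a gene for a secreted airway protein of the BPI fold family, and WT mice (n = 5, 2 males and 3 females) carried it. The labels do not say how the allele was made or whether mice were littermates, and replicate numbers only name the mice.

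Smooth muscle forms rings and bundles around the airways and the walls of lung arteries and veins. It contracts when calcium activates the kinase encoded by Mylk, which phosphorylates the light chain of the motor Myh11, so that the motor pulls on filaments of smooth muscle actin (Acta2 and Actg2). Tagln, Cnn1, Smtn and Lmod1 encode proteins that bind these filaments, and Des and Synpo2 encode parts of the scaffold that anchors them. Transcription of many of these genes is known to depend on serum response factor (Srf) and its partner myocardin (Myocd), which act through an element named the CArG box. The MCAT element, spelled CATTCC and bound by TEAD factors, is also known from muscle promoters.

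The promoter stretches whose letters match or nearly match these elements are shown. MCAT letters occurred in several members, and a near match to the CArG box in Acta2 alone. RefSeq promoters of GRCm38.p6, 300 bases each (250 before and 50 after the start), matched 7 of the 10 genes: Acta2, Cnn1, Des, Lmod1, Smtn, Synpo2 and Mylk. The start is the RefSeq one, and the stretches of Acta2, Mylk and Smtn lie inside the GENCODE bounds of these genes given below. Each line gives 30 bases, 5′ to 3′ on the gene's strand, with the element in capitals.
Acta2 at chr19:34255388-34255417, CArG-like, first capital at position -34 from the start: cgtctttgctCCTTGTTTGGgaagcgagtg
Acta2 at chr19:34255438-34255467, CArG-like, position -84: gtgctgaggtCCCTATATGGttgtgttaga
Acta2 at chr19:34255502-34255531, MCAT on the opposite strand, position -146: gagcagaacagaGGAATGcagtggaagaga
Lmod1 at chr1:135324671-135324700, MCAT on the opposite strand, position -130: ccaagattccctGGAATGtcctcaagtttc
Mylk at chr16:34784780-34784809, MCAT, position -158: tgcagttcagaaCATTCCctggtacgtgca
Smtn at chr11:3539497-3539526, MCAT, position -222: cggtttgtggcaCATTCCggactttggctt

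Searched on both strands, MCAT was present in 4 of the 7 member promoters and in 14.7% of all 32851 promoters of this length. The exact CArG box was present in 0 of the 7 and in 1.63% of all. With 1 G or C allowed among its middle 6 bases, it was present in 1 of the 7 (Acta2, with 2 matches) and in 9.98% of all. No printed MCAT overlapped a CArG-like match. These matches describe the letters of a short window and are not evidence of binding.

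Libraries held 21357424 to 28321294 estimated counts per mouse, and each member had at least 617 counts in each mouse. Levels are given as CPM, counts per 1000000 counts of a library after scaling between libraries. Bpifb1 itself lay at 0.217 to 1.26 CPM in the KO and at 28.1 to 79.5 CPM in the WT animals, so the genotype labels held for all 10. The lung label held as well: the alveolar genes Sftpc and Ager measured at least 12634 and 2026 CPM in each mouse. KO replicate 5, labelled female, had 1.78 CPM of Xist, where the other 6 females had 273 to 407 CPM and the males 1.29 to 1.73 CPM, and 0 counts of 4 Y-linked genes. WT replicate 5 had the largest library and stood apart in several members. Where leaving out either mouse moved a genotype difference of a member by more than 1.5 times, the value without it is given.

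All 10 genes are protein coding, and all coordinates are those of GRCm38. Acta2 (ENSMUSG00000035783; chromosome 19, 34241090 to 34255590, minus strand) and Actg2 (ENSMUSG00000059430; chromosome 6, 83512905 to 83536265, minus strand) encode the vascular and enteric types of smooth muscle actin. Myh11 (ENSMUSG00000018830; chromosome 16, 14194535 to 14291372, minus strand) and Mylk (ENSMUSG00000022836; chromosome 16, 34745210 to 35002420, plus strand) lie on 1 chromosome, far apart. Tagln (ENSMUSG00000032085; chromosome 9, 45929619 to 45936058, minus strand) and Cnn1 (ENSMUSG00000001349; chromosome 9, 22099216 to 22109630, plus strand) also share a chromosome, as do Des (ENSMUSG00000026208; chromosome 1, 75360329 to 75368579, plus strand) and Lmod1 (ENSMUSG00000048096; chromosome 1, 135324807 to 135368065, plus strand). Smtn (ENSMUSG00000020439; chromosome 11, 3517523 to 3540612, minus strand) and Synpo2 (ENSMUSG00000050315; chromosome 3, 123076519 to 123236149, minus strand) complete the set.

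Actins and myosins are families of near copies, so the words of 50 bases (the read length) in the members' GENCODE transcripts were compared with the transcripts of all other genes. Acta2 shared 7 of 2146 words (0.326%), each of them with Actg1 and with actin-like pseudogenes, Myh11 shared 26 of 7644 (0.34%) with Myh9 and Myh10, and Actg2 shared 0 of 1592. Tagln, Cnn1, Des, Lmod1 and Smtn shared 0, Mylk 12 of 11202 and Synpo2 5 of 13157. Exons of Tagln, Des, Smtn and Mylk overlap genes on the opposite strand. The kit keeps strand, but whether counting used it is not given in the sources used here. Pcsk7, opposite Tagln, measured 36.6 to 41.7 CPM, and Gm11946, opposite Smtn, 9.09 to 14.4 CPM, so a part of the counts of Tagln and Smtn is uncertain.

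Per length, Acta2 was the most abundant of the 10 genes and Synpo2 the least. Dividing CPM by the kilobases of annotated exon gave means of 131 ± 17.9 for Acta2, 90.4 ± 8.47 for Tagln, 56.2 ± 2.92 for Des and 42.7 ± 3.25 for Mylk (CPM per kilobase, SD, n = 10 mice). Myh11 followed with 27.8 ± 4.71, Cnn1 with 25.7 ± 3.82, Actg2 with 21.9 ± 3.08 and Smtn with 20.2 ± 1.33, and the lowest were Lmod1 with 7.97 ± 0.755 and Synpo2 with 3.86 ± 0.541. Ranges over the mice did not overlap between Tagln and Des, Des and Mylk, Mylk and Myh11, Smtn and Lmod1, or Lmod1 and Synpo2. Acta2 exceeded Tagln within each of the 10 mice, by 1.33 to 1.57 times, although their ranges overlapped. The order of the 4 genes in the middle was settled only in part. Myh11 exceeded Cnn1 in 8 of 10 mice and Actg2 exceeded Smtn in 7 of 10, but Cnn1 exceeded Actg2 in 10 of 10. Exon length counts all annotated isoforms, so it can exceed the length of the transcripts present and place a gene too low. It was longest for Synpo2 (13089 exon bases) and Mylk (11263 exon bases), and the isoforms present were not examined.

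**Figure D1:**
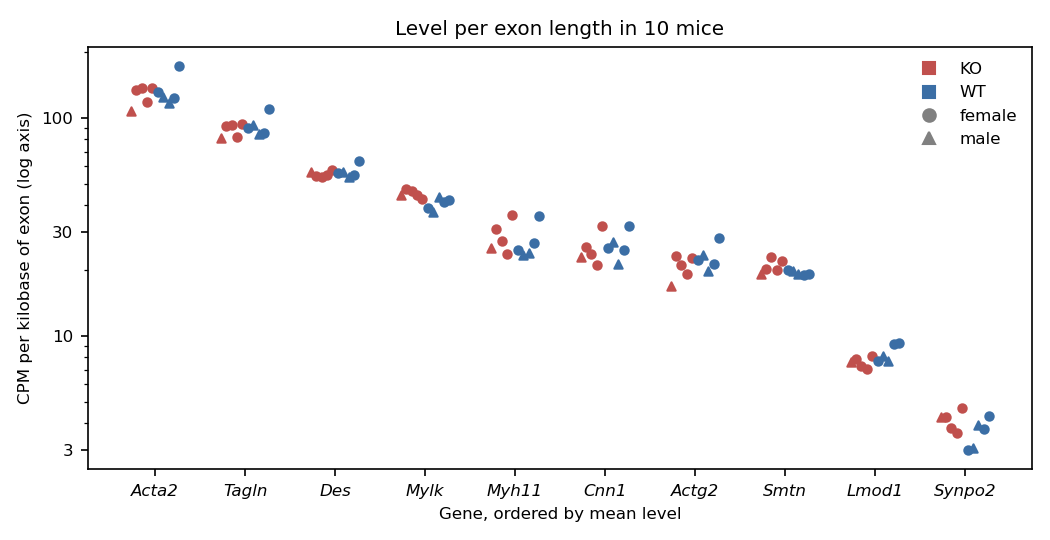
Level of each of the 10 genes per kilobase of exon, on a log axis, with 1 point per mouse (red KO, blue WT, triangles males, circles females). Acta2 lies between 108 and 173 CPM per kilobase and Synpo2 between 3 and 4.69. In the order Myh11, Cnn1, Actg2 and Smtn, neighbours overlap, but Myh11 (23.6 to 35.9) and Smtn (19 to 23.1) do not overlap each other.

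The genotypes were compared first, in the untreated lung. By edgeR's quasi-likelihood test with sex as a covariate, 0 of the 10 genes passed an adjusted p under 0.05, where 0.0222% of the 18024 tested genes passed. At an unadjusted p under 0.05 stood 3 of the 10, Mylk higher and Actg2 and Lmod1 lower in KO, where 17% of all tested genes did. The DESeq2 Wald test called 0 of the 10 and 1.92% of all genes. Log2 fold changes (KO minus WT) ran from -0.21 to 0.18, 4 above and 6 below 0, with a median of -0.07 beside a median of -0.00 over all tested genes. The median rested on WT replicate 5, without which it was 0.002, with 5 genes above and 5 below 0. In no member did the ranges of the genotypes separate, which happened in 1.88% of the tested genes. In a piece of whole lung, fewer smooth muscle cells and less RNA per smooth muscle cell cannot be told apart.

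Of the actins, Acta2 measured 236, 296, 301, 259 and 303 CPM in KO replicates 1 to 5. In WT replicates 1 to 5 it measured 290.4, 275, 257, 270.3 and 379.9 CPM. WT replicate 5 was the highest of all mice and KO replicate 1, the KO male, the lowest, with the other mice of both genotypes between them. Averaged by genotype, KO mice had 279 ± 29.9 CPM and WT mice 295 ± 49.2 CPM (SD over 5 animals, difference on the log2 scale -0.13 with SE 0.09, adjusted p of 0.46 by edgeR). Without WT replicate 5 the log2 fold change was -0.02, and without WT replicate 4 it was -0.20.

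Actg2, the less abundant smooth muscle actin, measured 26.3, 36.5, 32.8, 29.8 and 35.7 CPM in the KO mice in the same order. The WT mice had 34.8, 36.7, 30.9, 33.3 and 44.1 CPM. The same mice were lowest and highest as for Acta2, and the ranges overlapped. Its log2 fold change of -0.21 (SE 0.09, adjusted p of 0.28 by edgeR) was the most negative of the 10 genes, and without WT replicate 5 it was -0.13.

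Myh11, the smooth muscle myosin heavy chain, measured 192, 235, 208, 181 and 273 CPM in KO mice. In WT mice it measured 189, 179.6, 183, 203 and 271 CPM. The highest mouse of each genotype was its replicate 5, and these 2 mice differed from each other by less than either differed from the rest of its group. The log2 difference came to 0.04 (SE 0.12, adjusted p of 0.90 by edgeR). Its sign depended on single mice, the values running from -0.03 to 0.16 when 1 was left out: it was -0.03 without KO replicate 5, -0.02 without WT replicate 1 and 0.16 without WT replicate 5.

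Mylk, the kinase that starts contraction, measured 499.6, 534, 522, 502 and 478 CPM in the KO animals and 433, 416, 489.6, 466 and 475 CPM in WT mice. All but 1 of the KO mice lay above all WT mice, and KO replicate 5 lay below WT replicate 3. Averages of 507 ± 21.5 CPM in KO and 456 ± 30.3 CPM in WT (SD over 5 animals) gave a log2 difference of 0.15 (SE 0.06, adjusted p of 0.23 by edgeR, unadjusted p 0.0242). Over 19 alternative settings it ran from 0.12 to 0.18 and its lowest adjusted p was 0.137.

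Among the proteins that bind the actin filament, Tagln (transgelin) had 161, 184, 184, 162 and 187 CPM in the KO animals and 179.6, 184, 168, 169 and 219 CPM in WT mice. WT replicate 5 was again highest, and the other 9 mice lay within 161 to 187 CPM. Between genotypes the log2 difference was -0.09 (SE 0.07, adjusted p of 0.54 by edgeR), with -0.02 without WT replicate 5 and -0.15 without WT replicate 4.

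Cnn1 (calponin) had 63, 70.3, 65.5, 57.9 and 87.4 CPM in the KO animals and 69.2, 74.2, 58.8, 68.3 and 87.8 CPM in WT mice. As with Myh11, replicate 5 of each genotype stood above the other mice, none of which exceeded 74.2 CPM. The genotypes differed by -0.09 on the log2 scale (SE 0.12, adjusted p of 0.74 by edgeR). That value was -0.00 without WT replicate 5, -0.03 without KO replicate 4 and -0.18 without KO replicate 5.

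Lmod1 (leiomodin), which starts new actin filaments, measured 29.9, 30.8, 28.7, 27.8 and 32 CPM in KO mice. The WT mice had 30.2, 31.8, 30.4, 36.4 and 36.8 CPM. WT replicates 4 and 5 were above all other mice, and the remaining WT mice lay among the KO mice. KO minus WT on the log2 scale was -0.17 (SE 0.07, adjusted p of 0.25 by edgeR, unadjusted p 0.0295), from -0.22 to -0.12 over the alternatives.

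Smtn (smoothelin) had 84.6, 88.9, 101, 88 and 96.2 CPM in the KO animals and 87.7, 87.1, 84.7, 83 and 84.2 CPM in WT mice. The WT mice lay within a narrow range, with an SD of 1.99 CPM against 6.8 CPM in KO, where replicates 3 and 5 were higher than the rest. The log2 difference came to 0.09 (SE 0.06, adjusted p of 0.40 by edgeR), from 0.06 without KO replicate 3 to 0.14 without KO replicate 1.

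Of the scaffold genes, Des (desmin), the intermediate filament of all muscle types, measured 212, 204, 202, 206 and 217 CPM in KO mice. The WT mice had 210.3, 213, 201, 206 and 238 CPM. Apart from WT replicate 5 all mice lay within 201 to 217 CPM. Between genotypes the log2 difference was -0.04 (SE 0.05, adjusted p of 0.72 by edgeR), with 0.01 without WT replicate 5 and -0.08 without KO replicate 1.

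Synpo2 (also named myopodin), which links actin to the Z-disc and dense bodies, measured 55.7, 55.7, 49.3, 46.9 and 61.4 CPM in the KO animals and 39.3, 40.2, 51.3, 49.2 and 56 CPM in WT mice. WT replicates 1 and 2 were lower than all other mice. The log2 fold change of 0.18 (SE 0.11, adjusted p of 0.42 by edgeR) was the most positive of the 10, and it ran from 0.11 without WT replicate 1 to 0.27 without WT replicate 5 (p of 0.735 and 0.251, adjusted by edgeR).

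**Figure D2:**
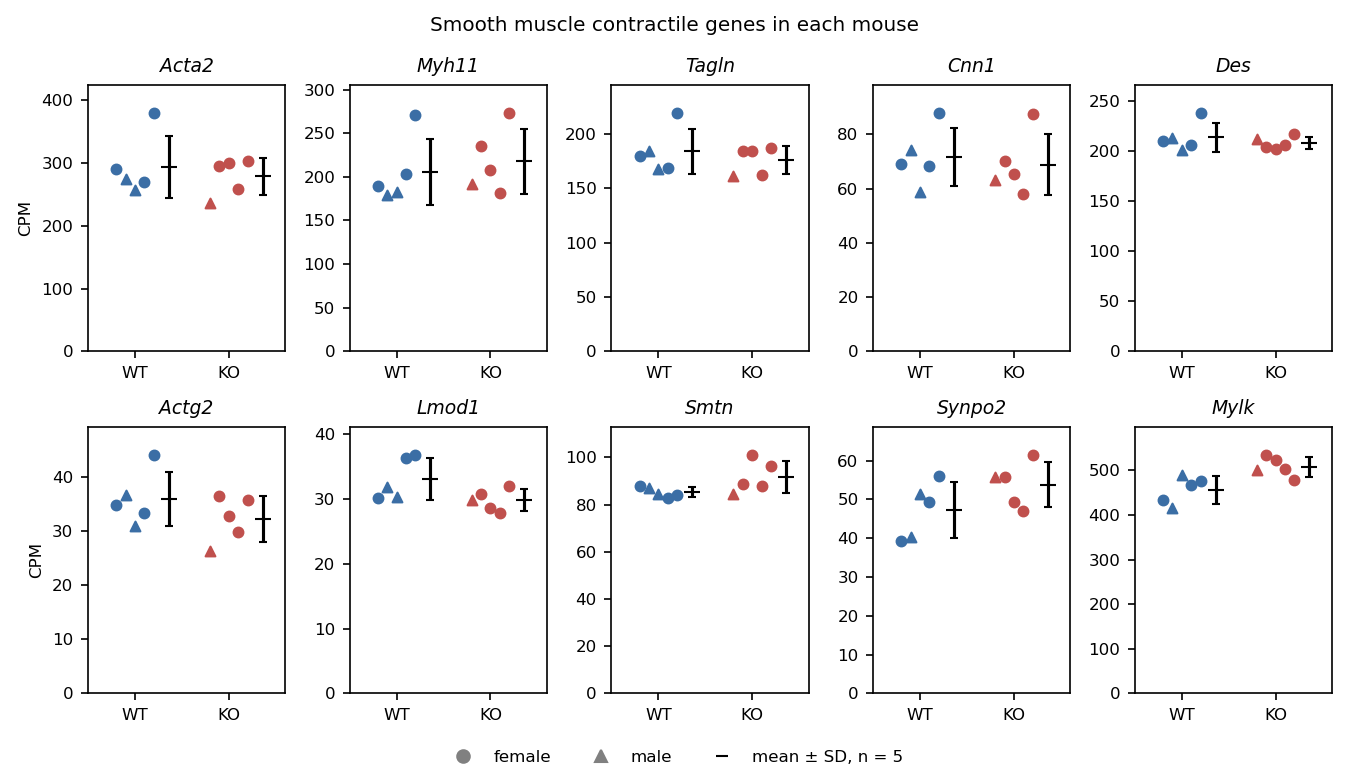
CPM of each gene in each mouse (points; triangles males, circles females), with the mean and SD of 5 mice per genotype in black. The genotypes overlap in all 10 genes, and WT replicate 5 is the highest WT mouse in each gene but Smtn and Mylk.

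Sex was compared through the sex coefficient of the same fit, over 3 males and 7 females. Of the 10 genes 0 passed an adjusted p under 0.05, where 0.583% of all tested genes passed. At an unadjusted p under 0.05 stood 2 of 10, Acta2 and Actg2, both lower in males, beside 15.1% of all tested genes. For Acta2 the male minus female value was -0.26 (SE 0.10, adjusted p of 0.22 by edgeR), with 256 ± 19.2 CPM in males (n = 3) and 300.0 ± 38.8 CPM in females (n = 7). Myh11 also had -0.26 (SE 0.13, adjusted p of 0.40 by edgeR), with 185 ± 6.59 CPM in males and 223 ± 37.5 CPM in females (SD). These females include KO replicate 5, the highest mouse in Myh11 (273 CPM), whose Xist (1.78 CPM) was near the male level. Over 18 alternatives, Acta2 ran from -0.32 to -0.17 and Myh11 from -0.31 to -0.16. All 10 log2 fold changes were below 0, from -0.26 to -0.02, with a median of -0.11 beside -0.01 over all tested genes. Without WT replicate 5 the median was -0.061 and 8 were below 0, and without KO replicate 5 it was -0.096 with 9 below 0. Acta2 and Myh11 had -0.17 and -0.16 without WT replicate 5. The 2 mice with the highest mean over the members, WT replicate 5 and KO replicate 5, are both labelled female, and the ranges of the sexes overlapped in all 10 genes.

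**Figure D3:**
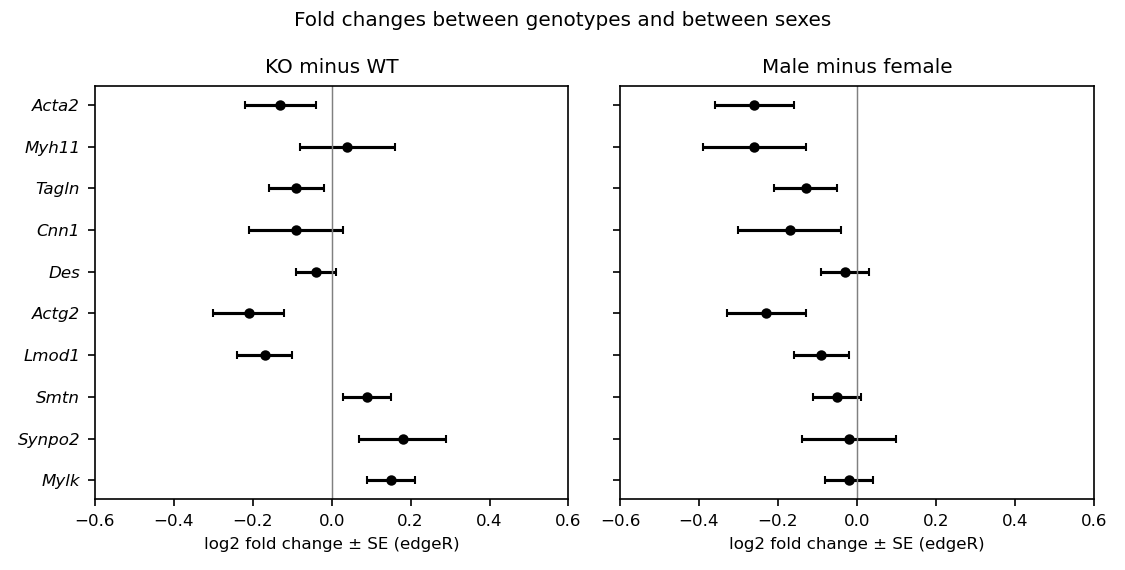
Log2 fold changes with SE for KO minus WT (left) and male minus female (right) from the same edgeR fit of 10 mice. Genotype values lie on both sides of 0, from -0.21 for Actg2 to 0.18 for Synpo2, whereas all sex values lie at or below -0.02, and no gene passed in either comparison.

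The spread between mice differed among the members. The coefficient of variation within genotype (CV, from SDs pooled over both genotypes) was 17.6% for Myh11, 15.6% for Cnn1, 14.2% for Acta2, 13.6% for Actg2 and 12.9% for Synpo2. Tagln had 9.61% and Lmod1 8.18%. The smallest values were 5.65% for Smtn, 5.45% for Mylk and 5.31% for Des. The median over the members was 11.3%, beside 9.9% over all 18024 tested genes and 7.1% over the 8531 genes with a mean of at least 20 CPM, a level that all members exceed and that was chosen after seeing the data. Of those 8531 genes 97.1% had a lower CV than Myh11, and 24.5% had a lower CV than Des. Without WT replicate 5 the CV was 8.79% for Acta2, 6.39% for Tagln and 2.82% for Des, while the other 7 genes moved by less than 1.5 times. The median CV of the members was 1.14 times that of all tested genes, and 0.82 times without that mouse.

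WT replicate 5 was the highest mouse in 6 of 10 genes (Acta2, Tagln, Cnn1, Des, Actg2 and Lmod1) and second highest in 2. KO replicate 5 was highest in Myh11 and Synpo2 and second highest in 5. The lowest mean over the members was that of KO replicate 4 (6.71 log2 CPM), beside 7.05 in WT replicate 5 and 6.97 in KO replicate 5.

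**Figure D4:**
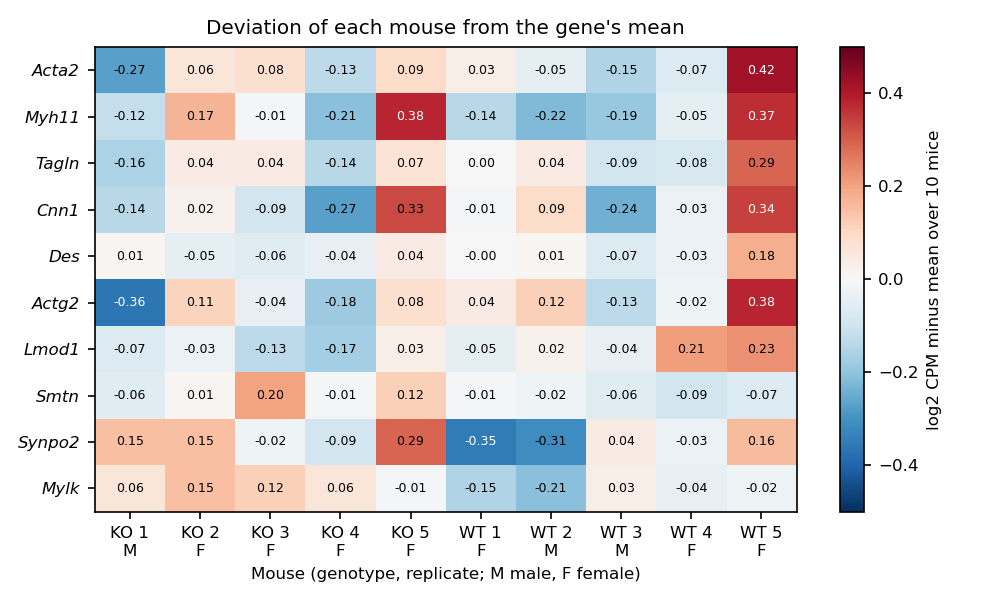
Log2 CPM of each gene in each mouse minus the gene's mean over 10 mice (red above, blue below the mean, values printed in the cells). WT replicate 5 deviates by 0.42 in Acta2, 0.37 in Myh11 and 0.38 in Actg2 but by -0.02 in Mylk, and KO replicate 5 by 0.38 in Myh11 and 0.33 in Cnn1.

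Across the 10 mice, some members moved together and others did not. The median Pearson's r of log2 CPM over the 45 pairs of members was 0.51, from -0.45 (Lmod1 and Smtn) to 0.96 (Acta2 and Tagln). Acta2, Tagln, Actg2, Cnn1 and Myh11, grouped after their values were seen, had r of 0.64 to 0.96 among themselves. Their median r was 0.81, and 0.66 over the 8 mice without KO replicate 5 and WT replicate 5. Mylk had r from -0.31 to 0.25 with these 5 genes, and its highest r among the members was 0.66, with Synpo2. Synpo2 and Mylk have the longest exons of the 10 (13089 and 11263 bases). Their r was 0.81 and 0.64 with the long gene Rock1 (18094 exon bases). With the shorter Tagln2 (2082 exon bases) it was -0.93 and -0.72. Rock1 and Tagln2 were picked after their values were seen, and Muc16 (26350 exon bases) had 0.04 with both. Whether exon length played a part was not tested. All pairs share their libraries, so the values describe these mice.

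Myh11 was set against the 9 other genes in turn. For Acta2 Pearson's r was 0.77 (permutation p 0.0041, adjusted over 9 relations 0.021) and Spearman's rho 0.72 (permutation p 0.024, adjusted 0.11). For Cnn1 r was 0.82 (permutation p 0.0047, adjusted 0.021) and rho 0.56 (adjusted permutation p 0.26), and for Tagln r was 0.73 (adjusted permutation p 0.035) and rho 0.54 (adjusted permutation p 0.26). Synpo2 had r of 0.72 (adjusted permutation p 0.045) and rho of 0.81 (adjusted permutation p 0.067). The other 5 relations did not pass by r (adjusted permutation p 0.075 to 0.49), and 0 of 9 passed by rho. Without KO replicate 5 and WT replicate 5, the 2 mice farthest from the median of Myh11, r became 0.54 for Acta2, 0.35 for Cnn1, 0.41 for Tagln and 0.55 for Synpo2. These values were lower, and single other mice also ended some of the calls. With the mean of each genotype removed, r was 0.84 for Acta2, 0.88 for Cnn1, 0.83 for Tagln and 0.73 for Synpo2. Without KO replicate 5 and WT replicate 5, r also fell for Actg2 (0.64 to 0.33), Lmod1 (0.51 to 0.16) and Des (0.62 to -0.38). It rose for Smtn (0.27 to 0.32) and for Mylk (0.25 to 0.60), which then had the highest r of the 9.

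**Figure D5:**
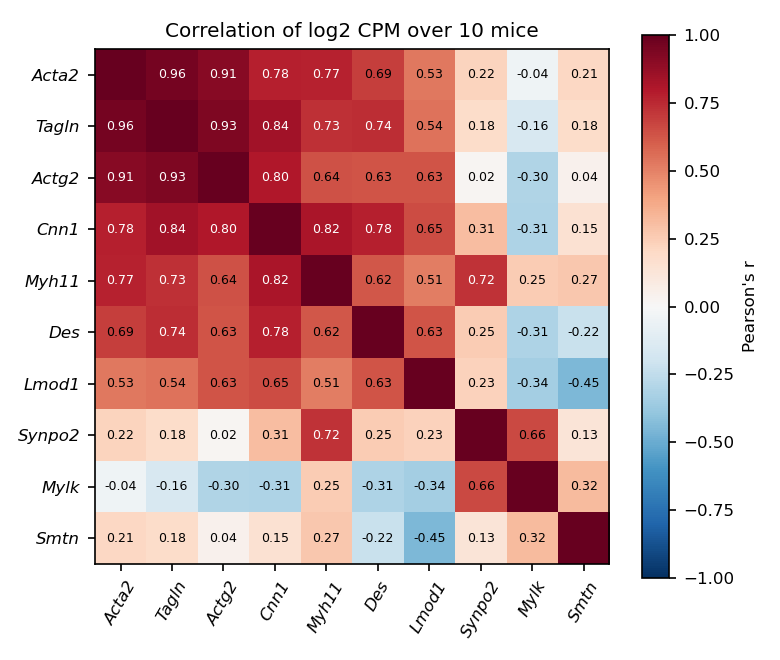
Pearson's r of log2 CPM over 10 mice for each pair of the 10 genes, with red for positive and blue for negative values. Acta2, Tagln, Actg2, Cnn1 and Myh11 form a block of values from 0.64 to 0.96, while Mylk lies below 0 with 6 of the 9 other genes and Smtn spans -0.45 to 0.32.

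Of 16278 other genes with a mean of at least 1 CPM, the closest to Acta2 over the 10 mice was Tagln, followed by Myl9 (r = 0.94), the regulatory light chain that Mylk phosphorylates, and Tpm2 (r = 0.93), a tropomyosin of smooth muscle. The same 2 genes were among the 5 closest to Tagln (Myl9 0.96, Tpm2 0.93). Cnn1 had Tpm2 (r = 0.89) and Actg2 had Myl9 (r = 0.91) among its 5 closest genes. The 5 genes closest to Myh11 (Gm16638 first, r = 0.96), Mylk (Atp1b2 first, r = 0.96), Synpo2 (Chd2 first, r = 0.95), Smtn (Cmtr2 first, r = 0.93), Des and Lmod1 included no gene of the contractile lists. The 10 genes with the highest r to the mean of all members were Gm16638, Dmtf1, Psd4, Arhgef4, Gm37939, Ptk2b, Tox, Hnrnpdl, Gm17552 and Hsh2d (r from 0.92 to 0.87, 10 mice). Myl9 and Tpm2 came 13th and 14th of 16269 genes, each with r = 0.86, and Kcnmb1, a subunit of the calcium-activated potassium channel of smooth muscle, 24th with r = 0.85. With 10 mice and this many genes, these values are a description and no test was made.

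The other genes of the pathway were taken from lists. Of 28 other contractile and cytoskeletal genes 28 were tested and 0 passed between the genotypes. At an unadjusted p under 0.05 stood 7 higher and 1 lower in KO (28.6%), beside 17% of all tested genes. The median log2 fold change was 0.07. Myl9 averaged 114 ± 9.93 CPM over KO and 123 ± 16.5 CPM over WT animals (SD, difference on the log2 scale -0.15 with SE 0.08, adjusted p of 0.35 by edgeR). Tpm2 differed by -0.18 on the log2 scale (SE 0.10, adjusted p of 0.38 by edgeR), whereas Tpm1 (0.02) and the caldesmon gene Cald1 (0.10) were nearer to 0 or above it. Ppp1r12b, a targeting subunit of the phosphatase that reverses the action of Mylk, had the smallest p of this list: its log2 fold change was 0.28 (SE 0.06, adjusted p of 0.12 by edgeR), with KO mice at 83.7 to 101 CPM and WT mice at 66.9 to 82.3 CPM. Ppp1r14a, an inhibitor of the same phosphatase, had -0.17 (SE 0.07, adjusted p of 0.22 by edgeR). Neither was called.

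Among 12 transcriptional regulators, all tested, 0 passed, with 4 higher and 1 lower in KO at an unadjusted p under 0.05 (41.7%, beside 17% of all tested genes). Srf measured 79.2, 74.5, 82.7, 75.9 and 83 CPM in the KO animals and 72.4, 74, 71.2, 67.4 and 67.4 CPM in WT mice. All KO mice lay above all WT mice, by a small margin (difference on the log2 scale 0.18 with SE 0.05, adjusted p of 0.16 by edgeR). Such a separation, in either direction, occurred in 1.88% of all tested genes. Myocd, at 3.25 to 5.58 CPM over all mice, had 0.35 (SE 0.12, adjusted p of 0.20 by edgeR). Klf4, known as a repressor of the contractile genes, had the smallest p (difference on the log2 scale 0.41 with SE 0.10, adjusted p of 0.13 by edgeR).

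The list of receptors, channels and the relaxation pathway held 29 genes, of which 28 were tested and 0 passed. An unadjusted p under 0.05 was reached by 3, all higher in KO (10.7%, beside 17% of all tested genes). Pde5a, the phosphodiesterase that breaks down cyclic GMP in smooth muscle, averaged 241 ± 8.79 CPM over KO and 188 ± 19.8 CPM over WT animals (SD, n = 5). Its ranges did not overlap, as in 1.88% of all tested genes (difference on the log2 scale 0.35 with SE 0.07, adjusted p of 0.091 by edgeR). Of the muscarinic receptors that carry the nerve signal for contraction, Chrm2 spanned 16.1 to 22.5 CPM in the KO and 8.9 to 21.7 CPM in the WT animals (difference on the log2 scale 0.28 with SE 0.17, adjusted p of 0.44 by edgeR). Chrm3 had 0.15 (SE 0.13, adjusted p of 0.58 by edgeR). Prkg1, the kinase that cyclic GMP activates, had 0.04 (SE 0.11, adjusted p of 0.89 by edgeR) and Kcnmb1 -0.01 (SE 0.10, adjusted p of 0.96 by edgeR).

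The non-muscle and striated relatives of the members numbered 21, of which 18 were tested and 0 passed. Unadjusted, 3 had a p under 0.05, all higher in KO (Myh9, Myh10 and Synpo), which is 16.7% beside 17% of all tested genes. Per kilobase of exon the cytoplasmic actins were above Acta2: Actb had a mean of 1070.2 and Actg1 of 547 CPM per kilobase, and cardiac actin (Actc1) had 108. The skeletal actin Acta1 was between 0 and 0.177 CPM per kilobase. Actb differed by 0.01 (SE 0.06, adjusted p of 0.94 by edgeR) and Actg1 by -0.05 (SE 0.08, adjusted p of 0.82 by edgeR) on the log2 scale. The values were 0.14 for Myh9, 0.19 for Myh10, -0.05 for Tagln2, -0.06 for Cnn2, 0.02 for Cnn3 and -0.05 for Vim (adjusted p of 0.25 to 0.87 by edgeR). In the sex comparison 0 genes of these 4 lists passed. The smallest adjusted p there was that of the thromboxane receptor gene Tbxa2r, -0.53 (SE 0.12, adjusted p of 0.064 by edgeR).

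Other cells of the piece express some members, so their markers were summed in each mouse. Desmin is made in the cardiac muscle that sheathes lung veins, and the 12 cardiac markers, among them Myh6, Tnnt2, Myl7 and Actc1, summed to 770.5 to 1339 CPM in the KO and 484 to 1316 CPM in the WT animals. The 2 mice highest in the members, WT replicate 5 and KO replicate 5, had 1316 and 1148 CPM, but KO replicate 1, ranked 9 of 10 in the members, had the most. Over 10 mice Des had r = 0.54 with the cardiac mean (permutation p 0.12, adjusted over 20 relations 0.75; rho = 0.44, adjusted permutation p 0.97), and r = 0.73 without the 2 mice farthest from its median. The rise was not particular to Des. Without those 2 mice, r with the cardiac mean was 0.53 to 0.67 for Acta2, Myh11, Tagln, Cnn1, Actg2 and Lmod1, from -0.20 to 0.32 over 10 mice. For Synpo2, Smtn and Mylk it was 0.24, -0.17 and -0.21 without them. The 20 relations of the members with cardiac and with pericyte markers were chosen after seeing the data, and 0 passed (lowest adjusted permutation p 0.75). The 11 pericyte markers, from cells that wrap capillaries, summed to 707 to 813 CPM in the KO and 609 to 744 CPM in the WT animals, and the highest r with their mean was that of Synpo2 (r = 0.62, rho = 0.52, adjusted permutation p 0.75 and 0.97), with 0.61 without the 2 mice farthest from their median. Mylk had r = 0.55 (rho = 0.44, adjusted permutation p 0.75 and 0.97), and 0.87 without those 2 mice. The single pericyte markers were divided. Over 10 mice Mylk had r from -0.58 (Kcnj8) to 0.84 (Pdgfrb) with them, and Synpo2 from -0.89 (Cox4i2) to 0.62 (Pdgfrb and Rgs5). The part of cardiac muscle and pericytes in the members' values beyond these relations was not tested.

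Sums of the other marker lists in KO and WT mice were 4891 to 5292 and 4517 to 5534 CPM for 11 fibroblast markers, and 340.1 to 412 and 365 to 469 CPM for 7 mesothelial markers. They were 413 to 467 and 409 to 493 CPM for 7 arterial endothelial markers, and 600.0 to 632 and 478 to 646 CPM for 5 Schwann cell markers. They were 295 to 366 and 268 to 305 CPM for 8 ciliated cell markers, 25223 to 28280.0 and 25880.3 to 33186 CPM for 5 club cell markers, and 123 to 341 and 116 to 392 CPM for 8 basal and gland cell markers. Adipocyte markers (5 genes) gave 44.5 to 93.6 and 29.5 to 104 CPM. The 9 early response genes, which respond to stimulation and tissue handling, gave 674 to 790.2 and 490.1 to 663 CPM, with 5 of 9 at an unadjusted p under 0.05 (55.6%, beside 17% of all tested genes), all higher in KO. Skeletal muscle markers (9 genes) gave 15.9 to 22.6 and 9.85 to 27.5 CPM, with Myh4 and Pvalb at or under 3 counts in each mouse. Cartilage markers (9 genes) gave 1.14 to 4.34 and 0.725 to 2.65 CPM, with KO replicate 5 highest. Of the basal and gland cell markers, KO replicate 5 was highest in Muc5b (128 CPM, where WT mice had 48.7 to 72.6 CPM). It was also highest in Ltf, Krt5, Trp63 and Reg3g. WT replicate 3 was highest in Bpifa1 and Krt15, and KO replicate 5 was lowest in Krt14. Muc5b had r = 0.68 with the mean of the members. Of all marker lists 0 genes passed between the genotypes, and 1 passed between the sexes, the club cell marker Aldh1a1 (male minus female log2 fold change 0.34, adjusted p of 0.024 by edgeR). WT replicate 5, highest in the members, was also highest in adipocyte markers (104 CPM) and in the sum of skeletal muscle markers (27.5 CPM). Of the latter 21.6 CPM was Ckm, while Acta1, Myh1, Myh2, Myh4, Tnnc2 and Pvalb had at most 0.379 CPM in each mouse. WT replicate 5 was lowest in early response genes (490.1 CPM), in the transcriptional regulators (873 CPM) and in the relatives of the members (8365 CPM). The part of all these lists in the members' values was not tested.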

How the data were processed

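RNA of 10 mouse lungs was sequenced as stranded mRNA libraries in single reads of 50 bases, per the labels' protocols. The authors deposited 1 table of estimated counts per gene, not scaled between samples; 30.1% of the values above 0 were not whole (tolerance 0.01). The submitters' processing notes name STAR 2.6.0, Salmon 0.9.1, FastQC, MultiQC, mm10 and GRCm38, without their roles. Of the identifiers 47281 matched GENCODE M21 and 52 did not, and 0 columns lacked a sample. Counts were rounded and scaled by TMM. Genes passing filterByExpr (minimum count 10, minimum total 15), 18024 with all 10 members, were tested by edgeR's quasi-likelihood test (edgeR 4.0.16, R 4.3.3, robust fit, genotype and sex as terms) with Benjamini-Hochberg adjustment over all of them and called at an adjusted p under 0.05. The SE is the absolute log2 fold change over the square root of F. Whether mice came from separate litters is not stated, so the mice may not be independent. The p-values by edgeR set each difference against the spread between these mice and treat them as independent. Correlations used log2 CPM (prior count 2) and 100000 permutations, two-sided. Scripts were tested on simulated counts that had the same dispersion for all genes and no sex effect. That check does not show how small a change in the members would have been called. Totals of 21357424 to 28321294 put 3 counts at 0.106 to 0.14 CPM, for counting error only.

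The members and lists were chosen with earlier results of these data known. Named genes were the members, fixed representatives of each list, the smallest p per pathway list, list genes that passed, and the 10 genes most like the members' mean. Other genes were named after their values were seen. Alternatives were DESeq2 1.42.0 (size factors; Wald test), limma 3.58.1 (voom), other filters, covariates and thresholds, no robust fit, females alone, a prior count of 0.5 and leaving out each mouse. The relations with cardiac and pericyte markers and the CVs without single mice were added after seeing the data. No genotype by sex interaction was fitted, since KO had 1 male.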

Additional observations from a re-analysis of the deposited data

Results flagged for a closer look

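Each gene's highest and lowest mouse was set against the others of its genotype by Dixon's test, in 20 sets of 5 mice, and 2 exceeded the critical value (chance gives about 1 in 20). Acta2 in WT replicate 5 was 379.9 CPM, where the other WT mice had 257 to 290.4 CPM (gap over range 0.73, critical value 0.71). Myh11 in that mouse reached 271 CPM, against 179.6 to 203 CPM in the remaining WT mice (gap over range 0.75). KO replicate 5 reached 273 CPM of Myh11 without passing that limit in its group.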

How the results depend on the processing

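In all 19 alternatives of the genotype comparison and all 18 of the sex comparison 0 members passed; at an unadjusted p under 0.05 stood 1 to 3 and 0 to 3. Some log2 fold changes changed sign when 1 mouse was left out, each time with an adjusted p of at least 0.808. Between genotypes Myh11 ran from -0.03 to 0.16 (-0.03 without KO replicate 5, -0.02 without WT replicate 1) and Des from -0.08 to 0.01 (0.01 without WT replicate 5). Between sexes Smtn ran from -0.08 to 0.01 (above 0 without KO replicate 1), Mylk from -0.08 to 0.04 (without WT replicate 2), Des from -0.08 to 0.01 (0.00 and 0.01 without WT replicates 3 and 5) and Synpo2 from -0.09 to 0.08 (0.01, 0.08 and 0.06 without KO replicate 5, WT replicate 2 and WT replicate 5). The r of Myh11 and Smtn ran from -0.00 (without KO replicate 5) to 0.54. The relations of Myh11 with Acta2 and with Cnn1 lost their call in 3 of 13 alternatives each (without KO replicate 4, KO replicate 5 or WT replicate 5), and those with Tagln and with Synpo2 in 7 each, all by leaving out 1 mouse. The median r over pairs of members ran from 0.30 (without WT replicate 5) to 0.61, and the median spread of members over that of all genes from 0.82 to 1.18. Over all genes, DESeq2 gave 346 calls between genotypes in place of 4. A threshold of 0.1 gave 57, no filter 50, limma-voom 2, and leaving out 1 mouse 2 to 18 (18 without WT replicate 3). Between sexes the 105 calls became 436 with DESeq2, 351 at 0.1, 197 with no filter and 41 with no genotype covariate. Leaving out 1 mouse gave 0 to 195 (edgeR; 0 without KO replicate 1, with 1919 at an unadjusted p under 0.05; 195 without WT replicate 4). The cause was not tested. No paired analysis was possible because replicate numbers follow sample order and pair no mice. The number of mice, with 3 males, limits these results; each member had at least 617 counts per mouse.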
